A study of Homo sapiens with 12 samples.

Results

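The genes described here encode the epidermal growth factor receptor EGFR, its partner receptor ERBB2, the ligands AREG and HBEGF, the feedback inhibitors ERRFI1 and DUSP5, and the transcription factor ETV5. They are 7 of the 6777 genes tested, found by their symbols in every deposited table. They were picked with their RNA and footprint changes already known. Their differences between treatments are therefore given as a description, without a test.

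EGFR is a receptor tyrosine kinase at the cell surface. Its ligands are made as membrane-anchored precursors and released by metalloproteases such as ADAM17, and the bound receptor signals through RAS, RAF, MEK and the kinase ERK, and through PI3K. ERK activity induces genes that act back on the pathway, among them ERRFI1, which binds the EGFR kinase domain and inhibits it, and DUSP5, a nuclear phosphatase that removes phosphate from ERK. Triple-negative breast cancer cells lack hormone receptors and amplified ERBB2, and many of them express EGFR.

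All libraries came from MDA-MB-231, an established line of human triple-negative breast cancer. Cells received 10 nM AZD0095, an inhibitor of the lactate exporter MCT4, or its vehicle DMSO, and both groups were harvested after 4 h. Total or polyadenylated RNA (the labels give both) was sequenced from 3 DMSO and 3 AZD0095 libraries, and ribosome-protected fragments, here called footprints, from another 3 and 3. Nothing in the labels says that replicates were separate cultures, so errors and p-values cover only how these libraries vary, and that variation may be technical. Levels are FPKM, fragments per kilobase of gene and sequencing depth, a scale per length on which genes can be compared within an assay.

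The 6 mesenchymal markers chosen for this line (VIM, CD44, AXL, ZEB1, CAV1 and FN1) were all listed in the RNA tables, with a summed level of 3913 to 4003 FPKM in DMSO and 4173 to 4304 FPKM in AZD0095. VIM made up most of this difference, with means of 2522 and 2743 FPKM, while CAV1 was at 222 and 217.2 FPKM and ZEB1 and FN1 differed little. Of 7 luminal or hormone receptor markers, EPCAM and ERBB2, the latter one of the 7 genes described, were listed, with a sum of 25.75 to 29.17 FPKM in DMSO and 29.72 to 33.68 FPKM in AZD0095. ESR1, PGR, GATA3, FOXA1 and CDH1 were not listed, nor were the 3 basal keratins or the 4 markers of fibroblasts, leukocytes and endothelium. The tables list only genes above 1 FPKM in every library, so a gene that is not listed may still be expressed. Footprint libraries were shallow, with an implied 107087 to 192324 reads in DMSO and 141122 to 501351 in AZD0095. RNA library depth is unknown. The marker sums did not overlap between treatments, while footprint depth overlapped and reached its highest values with AZD0095; their part in the results below was not tested.

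On GRCh38.p14, EGFR lies at chr7:55019017-55211628, ERBB2 at chr17:39688094-39728658, AREG at chr4:74445136-74455005 and HBEGF at chr5:140332843-140346603. ERRFI1 lies at chr1:8011727-8026309, DUSP5 at chr10:110497907-110511533 and ETV5 at chr3:186046314-186109089. RefSeq promoter sequences of this build were matched for 5 of the 7 genes, EGFR, ERBB2, AREG, HBEGF and ERRFI1. Each holds 300 bases, 250 before and 50 after the outermost annotated start of the gene. Other start sites of these genes, ERBB2 among them, were not searched. Which start site these cells use was not tested, nor whether a window overlaps the sequence of another gene. Those of ERRFI1 and AREG are shown because these genes had large RNA differences, and that of ERBB2 because it had the largest footprint difference. Capitals mark matches to the motifs searched.
AREG, chr4:74444886-74445185, plus strand: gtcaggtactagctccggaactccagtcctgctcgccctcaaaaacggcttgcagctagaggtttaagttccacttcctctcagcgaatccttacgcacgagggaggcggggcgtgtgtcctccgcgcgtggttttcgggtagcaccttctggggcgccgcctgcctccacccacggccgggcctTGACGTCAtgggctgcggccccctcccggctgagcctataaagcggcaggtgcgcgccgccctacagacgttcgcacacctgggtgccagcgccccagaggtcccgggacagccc
ERBB2, chr17:39687844-39688143, plus strand: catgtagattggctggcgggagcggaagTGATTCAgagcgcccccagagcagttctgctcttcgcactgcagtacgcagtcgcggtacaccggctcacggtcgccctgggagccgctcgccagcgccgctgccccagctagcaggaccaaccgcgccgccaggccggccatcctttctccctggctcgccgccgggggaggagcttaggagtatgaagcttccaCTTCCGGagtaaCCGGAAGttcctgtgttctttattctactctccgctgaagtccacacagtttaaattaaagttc
ERRFI1, chr1:8026260-8026559, minus strand: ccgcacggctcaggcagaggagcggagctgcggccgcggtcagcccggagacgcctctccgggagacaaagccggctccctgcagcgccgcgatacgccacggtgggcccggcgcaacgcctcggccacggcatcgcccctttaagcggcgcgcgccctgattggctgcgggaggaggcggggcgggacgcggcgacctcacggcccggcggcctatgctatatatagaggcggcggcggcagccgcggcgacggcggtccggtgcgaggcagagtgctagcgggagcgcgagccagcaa

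Motifs bound by factors that act downstream of growth factor or stress signalling were searched on both strands. In the AREG promoter the capitals mark a cAMP response element, TGACGTCA, which CREB and ATF factors bind, at -65 to -58, counted in bases from the first base of the gene; 1.85% of all 35116 promoters of this length hold one. In the ERBB2 window they mark an AP-1 site (TGANTCA, bound by FOS and JUN dimers and present in 7.71% of promoters) at -222 to -216. They also mark the ETS core CCGGAAG, once on each strand, at -26 to -20 and at -14 to -8; 10.3% of promoters hold it. The ERRFI1, EGFR and HBEGF windows held no match to these 3 motifs. None of the 5 windows held the amino acid response element core TGATGNAA (3.62% of promoters), the E-box CACGTG (7.26%) or the CArG box of serum response factor (1.29%). GC content was 66.3% for AREG, 60.7% for ERBB2, 74.7% for ERRFI1 and 75.3% for EGFR, against a median of 58.7% over all promoters. A match is a string of letters and not a shown binding site, and no match says only that the letters are not in this window.

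In RNA, 5 of the 7 genes (AREG, HBEGF, ERRFI1, ETV5 and DUSP5) were higher in every AZD0095 library than in every DMSO library, EGFR was lower in every one, and ERBB2 overlapped. Over all 6777 genes, 17.7% were higher without overlap and 11.5% lower; since the genes were chosen on these values, nothing is read from the count. In footprints 3 genes (ERBB2, ERRFI1 and DUSP5) were higher in every AZD0095 library and 4 overlapped, beside a share of 7.19% higher and 5.77% lower without overlap over all genes. The log2 differences below are AZD0095 minus DMSO on the log2(FPKM + 1) scale, with the standard error from limma. The median over all genes was 0.00921 in RNA and 0.0372 in footprints, and the median standard error was 0.0837 in RNA and 0.507 in footprints.

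EGFR RNA stood at 73.0, 80.9 and 87.9 FPKM in DMSO replicates 1, 2 and 3 and at 57.8, 70.1 and 69.7 FPKM in AZD0095. The 3 AZD0095 libraries were all below the lowest DMSO library, although AZD0095 replicate 2 and DMSO replicate 1 lay close together. Mean levels were 80.6 ± 7.45 FPKM (SD, n = 3) in DMSO and 65.9 ± 7.03 FPKM in AZD0095, a log2 difference of -0.29 ± 0.0943. EGFR footprints were at 50.7, 74.2 and 46.4 FPKM in DMSO and 40.8, 72.3 and 64.8 FPKM in AZD0095, and the log2 difference was 0.04 ± 0.444. The footprint groups overlapped, and the standard error is larger than the RNA difference. A footprint change of the size seen in RNA could therefore not be told from the spread between libraries.

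ERBB2, the receptor without a known ligand of its own that pairs with ligand-bound EGFR, had the lowest RNA level of the 7 genes in both treatments. Its RNA was at 16.4, 15.4 and 18.5 FPKM in DMSO and at 18.1, 18.9 and 21.4 FPKM in AZD0095. AZD0095 replicate 1 lay below DMSO replicate 3, so the groups overlapped, and the log2 difference was 0.20 ± 0.0934. Footprints differed far more. They were at 4.39, 3.15 and 16.1 FPKM in DMSO and at 91.4, 62.2 and 32.9 FPKM in AZD0095, with means of 7.88 ± 7.15 and 62.2 ± 29.3 FPKM (SD, n = 3).

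The ERBB2 footprint difference of 3.01 ± 0.669 on the log2 scale, an 8.04-fold higher level, ranked 1 of 6777 genes. DMSO replicate 3 was well above the other DMSO libraries and AZD0095 replicate 3 the lowest of its group, so these 2 libraries lay closest together. Expressed as reads per kilobase with the implied depth, ERBB2 had 0.543, 0.337 and 3.10 in DMSO and 12.9, 13.5 and 16.5 in AZD0095. Whole reads were sought only up to a fixed gene length. No length tried gave them for ERBB2 and longer ones were not tried, so no counting interval is given. In limma over all genes no footprint change passed an adjusted p of 0.05 (0 of 6777 genes, 530 at an unadjusted p under 0.05).

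The ligand AREG, amphiregulin, had RNA at 22.8, 20.5 and 21.3 FPKM in DMSO and 38.7, 36.5 and 38.9 FPKM in AZD0095. All 3 AZD0095 libraries lay within a narrow band well above the DMSO libraries, with means of 21.5 ± 1.14 and 38.0 ± 1.32 FPKM (SD, n = 3). The log2 difference was 0.79 ± 0.0661, a 1.73-fold higher level on this scale. AREG footprints were at 71.7, 23.7 and 33.0 FPKM in DMSO and 62.9, 52.5 and 65.8 FPKM in AZD0095. DMSO replicate 1 was the highest of all 6 and made the groups overlap, and the log2 difference was 0.64 ± 0.505. These levels rest on 7, 2 and 5 reads in DMSO and 7, 9 and 26 reads in AZD0095, with a 95% Poisson interval of 0.242 to 7.22 for the 2 reads of DMSO replicate 2.

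HBEGF, the heparin-binding ligand that is also shed from the cell surface, had RNA at 54.1, 59.9 and 59.7 FPKM in DMSO and 71.4, 77.0 and 81.4 FPKM in AZD0095. The groups did not overlap, and the difference was smaller than that of AREG, at 0.40 ± 0.0684 on the log2 scale. Footprints were at 135, 128 and 119 FPKM in DMSO and 140, 175 and 128 FPKM in AZD0095. AZD0095 replicate 3 fell inside the DMSO range, and the log2 difference was 0.20 ± 0.31. HBEGF reads came to 35 in the DMSO libraries together and 80 in the AZD0095 libraries, counts that also carry the greater depth of the latter. Poisson intervals cover counting error only, since reads without molecular identifiers are not independent molecules.

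ERRFI1, the intracellular inhibitor of the EGFR kinase, had the highest level of the 7 genes in both assays and treatments, and the largest RNA difference. Its RNA was at 238, 225 and 215 FPKM in DMSO and 518, 491 and 481 FPKM in AZD0095. The 2 groups lay far apart, and the log2 difference of 1.13 ± 0.0541, 2.19-fold, ranked 7 of 6777 genes. Footprints were at 157, 220 and 247 FPKM in DMSO and 620, 356 and 307 FPKM in AZD0095. Each AZD0095 library exceeded each DMSO library, AZD0095 replicate 1 by the widest margin, and the log2 difference was 0.99 ± 0.315.

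DUSP5, the ERK phosphatase, had RNA at 36.1, 34.9 and 34.1 FPKM in DMSO and 63.5, 61.7 and 66.1 FPKM in AZD0095. Means were 35.0 ± 0.981 and 63.8 ± 2.20 FPKM (SD, n = 3), a log2 difference of 0.85 ± 0.0559. Its footprints were at 27.3, 15.8 and 39.5 FPKM in DMSO and 47.9, 58.3 and 47.2 FPKM in AZD0095. The groups did not overlap, with the highest DMSO library below the lowest AZD0095 library, and the log2 difference was 0.95 ± 0.511. These rest on 4, 2 and 9 reads in DMSO and 8, 15 and 28 reads in AZD0095, so the DUSP5 footprint level has a wide error despite the separation.

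ETV5, an ETS family transcription factor whose gene is induced by ERK signalling, showed a higher RNA level without a higher footprint level. Its RNA was at 24.6, 23.2 and 23.3 FPKM in DMSO and 43.7, 41.4 and 41.4 FPKM in AZD0095, a log2 difference of 0.81 ± 0.0602. Footprints were at 88.2, 136 and 86.9 FPKM in DMSO and 104, 67.2 and 112 FPKM in AZD0095. DMSO replicate 2 was the highest and AZD0095 replicate 2 the lowest of the 6, the groups overlapped, and the log2 difference was -0.14 ± 0.378.

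**Figure D1:**
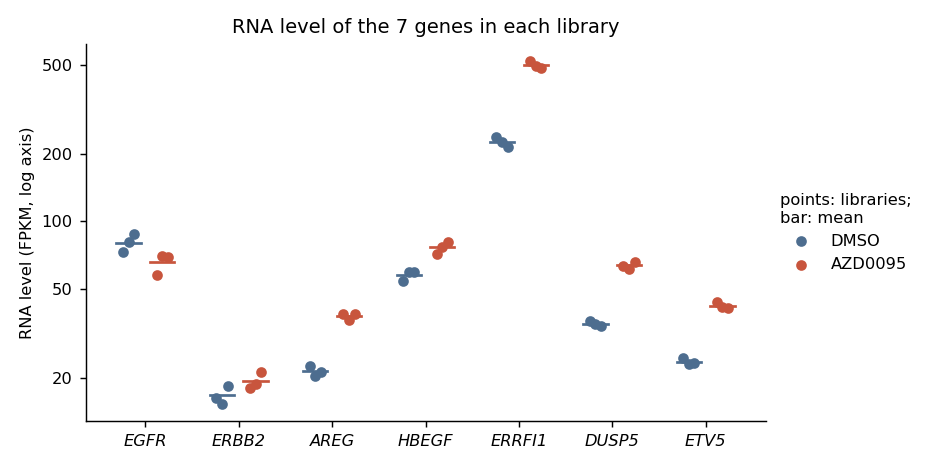
RNA level of the 7 genes in each library, in FPKM on a log axis; points are libraries and bars are group means (n = 3). AZD0095 libraries lie above the DMSO libraries for AREG, HBEGF, ERRFI1, DUSP5 and ETV5, below them for EGFR, and overlap them for ERBB2.

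**Figure D2:**
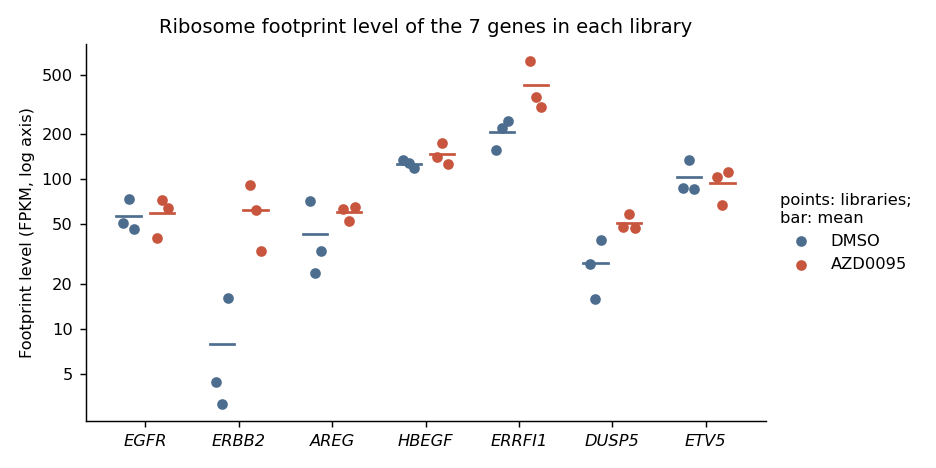
Footprint level of the same genes in each library, in FPKM on a log axis; points are libraries and bars are group means (n = 3). Libraries spread more widely than in RNA, and the groups separate for ERBB2, ERRFI1 and DUSP5, with ERBB2 at 3.15 to 16.1 FPKM in DMSO and 32.9 to 91.4 FPKM in AZD0095.

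In the plot of RNA change against footprint change, EGFR, AREG, HBEGF, ERRFI1 and DUSP5 lay within about 1 standard error of equal change in both assays. ERBB2 lay far above that line and ETV5 below it. The difference between the footprint and RNA changes, a change in translational efficiency, was fitted as the interaction of assay and treatment over all 12 libraries. It was 2.80 ± 0.691 on the log2 scale for ERBB2, ranked 1 of 6777 genes, and -0.94 ± 0.342 for ETV5, ranked 365 from the lowest. It was 0.33 ± 0.352 for EGFR, 0.11 ± 0.404 for DUSP5, -0.14 ± 0.321 for ERRFI1, -0.16 ± 0.467 for AREG and -0.20 ± 0.235 for HBEGF. Each of these 5 values is smaller than its standard error. No gene passed an adjusted p of 0.05 in limma for this interaction (0 of 6777 genes, 578 at an unadjusted p under 0.05).

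**Figure D3:**
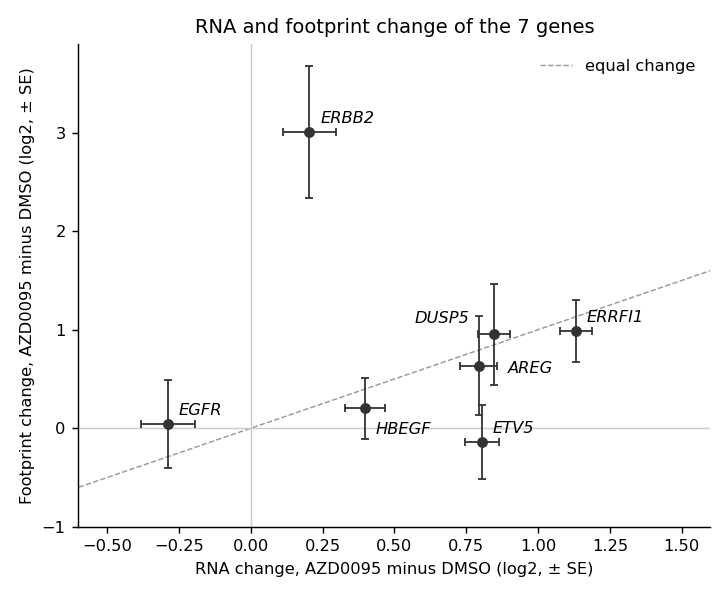
RNA change (x axis) against footprint change (y axis) of each gene, AZD0095 minus DMSO on the log2(FPKM + 1) scale; bars are ± 1 standard error from limma, and the dashed line marks equal change. ERBB2, at 0.20 in RNA and 3.01 in footprints, lies above the line, and ETV5, at 0.81 and -0.14, lies below it.

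The ratio of footprint to RNA level was also described within each treatment, with each library centred on its median gene. In DMSO the ratio of ERBB2 was the lowest of the 7 genes, at -2.92, -3.32 and -1.17 on the log2 scale in the 3 footprint libraries against the mean RNA level, a mean that only 1.39% of genes fell below. In AZD0095 it was 0.90, 0.39 and -0.44, so that ERBB2 moved from the bottom of the distribution to near the median gene. The ratio of ETV5 was the highest of the 7 in DMSO, at 0.66, 1.24 and 0.71, and was 0.0025, -0.58 and 0.21 in AZD0095. For both genes the 3 AZD0095 values lay outside the range of the 3 DMSO values. Over all 6777 genes, 6.02% were higher in this ratio without overlap and 7.22% lower, and nothing is read from the count of 2 among genes chosen on these values.

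For the remaining genes the libraries of both treatments overlapped. EGFR was at a mean ratio of -1.70 in DMSO and -1.41 in AZD0095, ERRFI1 at -1.32 and -1.51, and DUSP5 at -1.61 and -1.55, so that these 3 lay well below the median gene in both treatments. The ligands lay nearer to it, with AREG at -0.38 and -0.58 and HBEGF at -0.06 and -0.30.

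**Figure D4:**
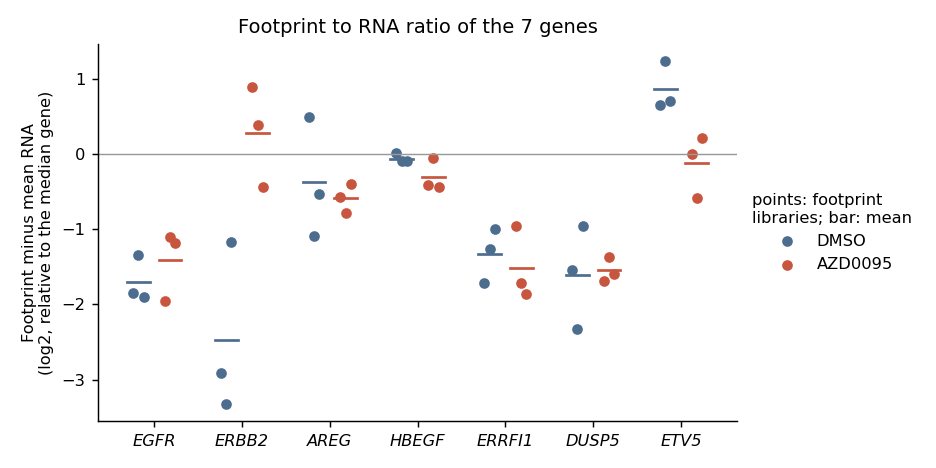
Footprint level of each library minus the mean RNA level of its treatment, on the log2 scale relative to the median gene of each library (line at 0); points are footprint libraries and bars are means (n = 3). The DMSO and AZD0095 points separate for ERBB2, which is higher in AZD0095 (6.02% of all genes separate this way), and for ETV5, which is lower (7.22%).

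The order of RNA levels in DMSO was ERRFI1, EGFR, HBEGF, DUSP5, ETV5, AREG and ERBB2, and the library ranges of all neighbours were separate. In AZD0095, HBEGF stood above EGFR and the order was otherwise the same. The ranges of EGFR and DUSP5 then overlapped and those of the other neighbours did not. In footprints ERRFI1 and HBEGF were first and second in both treatments, with separate ranges. ERBB2 was last in DMSO, at a level that only 3.88% of genes fell below, and its range overlapped that of DUSP5. In AZD0095 it came just behind ETV5, at the 52.9 percentile of genes, and the ranges of ETV5, ERBB2, AREG, EGFR and DUSP5 each overlapped the next.

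Profiles over the 6 RNA libraries, taken relative to each gene's DMSO mean, were compared by their root mean square difference on the log2 scale. AREG, ETV5 and DUSP5 had profiles close to each other, with differences of 0.0359 for AREG and ETV5, 0.0502 for AREG and DUSP5 and 0.0503 for ETV5 and DUSP5. ERRFI1 differed from DUSP5 by 0.21 and EGFR from ERRFI1 by 1.02. Outside the 7 genes, the nearest profiles to AREG were those of XBP1 (0.037), a transcription factor of the unfolded protein response, and the protein kinase C gene PRKCD (0.064). XBP1 and PRKCD were also the nearest to DUSP5 (0.042 and 0.052), and SLC38A2, an amino acid transporter, and XBP1 were the nearest to ETV5 (0.048 and 0.050). The nearest to ERRFI1 were the kinase gene PIM1 (0.087) and the cyclin gene CCNG2 (0.14), and to HBEGF they were GRINA (0.020) and the potassium channel gene KCNN4 (0.024). EGFR had IGFBP3 (0.022), an IGF-binding protein gene, and the chromatin gene ASXL1 (0.028) as its nearest, and ERBB2 had the DNA repair gene FANCA (0.032) and KCTD10 (0.041). These values rank likeness among the same 6 libraries and say nothing about shared control.

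The other genes of the pathway were taken from lists of receptors, ligands, shedding factors, feedback inhibitors and endocytosis factors. Further lists covered RAS and ERK cascade proteins, ERK response genes and the PI3K arm. The endocytosis list also held the phosphatase genes PTPN1, PTPN2 and PTPRJ. Measured genes of the PI3K list were PIK3R2, AKT1, AKT2 and ERBIN. From all lists, 73 genes beyond the 7 were listed in the tables. For them the RNA difference was tested with limma over all 6777 genes. In all, 9 of the 73 rose, 1 fell and 63 did not pass an adjusted p of 0.05, and their median log2 difference was 0.0672. Over all genes 8.04% passed, 5.03% higher and 3.01% lower, with a median of 0.00921. The lists were chosen with earlier results of these data known, so a comparison of the 73 with all genes is not independent. No footprint or translational efficiency change of the 73 passed in limma (0 of 73 for each, with 4 and 6 at an unadjusted p under 0.05).

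Among receptors, ERBB3 and ERBB4 were not listed. Among ligands, EGF, TGFA, EREG, BTC, EPGN, NRG2, NRG3 and NRG4 were not listed, which leaves NRG1, a ligand of ERBB3 and ERBB4, as the ligand besides AREG and HBEGF. NRG1 RNA rose from 48.8 ± 1.88 to 61.7 ± 1.95 FPKM (SD, n = 3), a log2 difference of 0.33 ± 0.0561 (limma adjusted p = 0.012). The call was lost without DMSO replicate 2 (adjusted p = 0.0622) and without AZD0095 replicate 2 (adjusted p = 0.0709). None of the 7 shedding factors, which include ADAM10, ADAM17 and the iRhom genes RHBDF1 and RHBDF2, passed the test. Their RNA differences ran from -0.09 to 0.28 with a median of 0.106, and ADAM17, which releases AREG, was at 0.15 ± 0.0597 (limma adjusted p = 0.166).

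Of 11 other feedback inhibitors measured, 2 rose and 9 did not pass. SPRY4, a Sprouty protein that restrains RAS activation, rose from 20.1 ± 1.05 to 25.7 ± 2.21 FPKM, 0.34 ± 0.0823 on the log2 scale (limma adjusted p = 0.0445). SPRED2, a related inhibitor, rose from 17.5 ± 0.593 to 21.7 ± 0.97 FPKM, 0.29 ± 0.0691 (limma adjusted p = 0.0386). Both calls were lost on leaving out any single library except AZD0095 replicate 1 (largest adjusted p 0.173 and 0.15), and on centring each library on its median (0.0624 and 0.0541). The RNA differences of ERRFI1 and DUSP5, for comparison, were 1.13 and 0.85; the contrast between genes was not tested.

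No other dual-specificity phosphatase passed the test with all 6 RNA libraries; DUSP7 did with replicates 2 and 3 only (limma adjusted p = 0.0494), an alternative chosen after seeing the data. DUSP6, the cytoplasmic ERK phosphatase, went from 180.8 ± 3.12 FPKM with DMSO to 189.7 ± 5.28 FPKM with AZD0095, a log2 difference of 0.07 ± 0.045 (limma adjusted p = 0.401). DUSP4, a nuclear phosphatase like DUSP5, was at 0.10 ± 0.048 (adjusted p = 0.264), and DUSP1 at 0.07 ± 0.0702 (adjusted p = 0.601). DUSP7 was at -0.23 ± 0.0733 and DUSP10 at -0.11 ± 0.134. SPRY2 was at -0.06 ± 0.055, LRIG1 at 0.22 ± 0.103, LRIG2 at -0.18 ± 0.0821 and PHLDA1 at 0.16 ± 0.0515, none of them past the test.

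Of 16 other ERK response genes, 3 rose and 1 fell, while 12 missed the threshold; the median difference was 0.0143. IER3, an immediate early gene that affects cell survival, rose from 321 to 456 FPKM, 0.50 ± 0.0442 on the log2 scale (limma adjusted p = 0.000671). JUNB, a subunit of AP-1, rose from 16.3 to 23.2 FPKM, 0.48 ± 0.0654 (adjusted p = 0.00598). Both kept their calls on leaving out each RNA library in turn, with largest adjusted p of 0.0111 and 0.0472. CXCL8, the chemokine interleukin 8, rose from 135.5 ± 17.1 to 212.8 ± 28 FPKM, 0.65 ± 0.11 (adjusted p = 0.0124), and its call was lost without DMSO replicate 2 (0.0695) or AZD0095 replicate 2 (0.0549).

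CCND1, the cyclin that drives entry into the cell cycle, fell by 0.19 on the log2 scale, from 180 to 157.5 FPKM (limma adjusted p = 0.0328). That call was lost on leaving out any library except AZD0095 replicate 1 (largest adjusted p 0.153), on median centring (0.0521) and without a variance trend (0.0786). The genes of this list that did not pass include EGR1 at 0.11 ± 0.147, MYC at 0.03 ± 0.0491 and FOSL1 at -0.08 ± 0.0445. ETV1, of the same ETS subfamily as ETV5, was at 0.25 ± 0.0911 (limma adjusted p = 0.139). These 4 were chosen for mention after their values were seen.

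**Figure D5:**
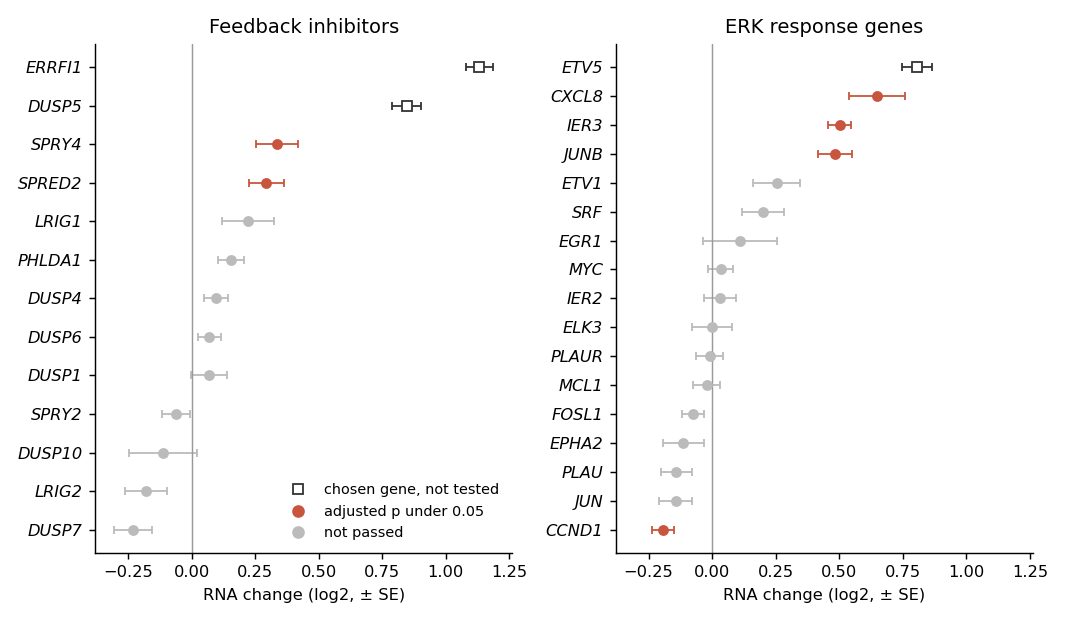
RNA change (log2, ± 1 standard error) of the feedback inhibitors (left) and ERK response genes (right) that were listed in the tables. Filled red points passed a limma adjusted p of 0.05, grey points did not, and open squares are the genes chosen on these values, which were not tested; ERRFI1, DUSP5 and ETV5 lie to the right of every other gene of their panel.

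Of 18 genes of the endocytosis list, 2 rose and 16 missed the threshold, and the median difference was 0.0734. CBL, the ubiquitin ligase that targets activated EGFR for degradation, rose from 11.3 to 15.4 FPKM, 0.42 ± 0.0916 on the log2 scale (limma adjusted p = 0.0303), and EPS15L1, an adaptor of clathrin-coated pits, rose by 0.33 ± 0.0606 (adjusted p = 0.0172). Of 16 proteins of the RAS and ERK cascade, RPS6KA1, a kinase activated by ERK, rose by 0.28 ± 0.0667 (limma adjusted p = 0.0392) and 15 did not pass. All 3 calls were lost on leaving out any library except AZD0095 replicate 1, with largest adjusted p of 0.13, 0.0881 and 0.139, and that of RPS6KA1 also on median centring (0.0502). Without AZD0095 replicate 1 a further 2 genes of the endocytosis list were called lower, USP8 (-0.41, limma adjusted p = 0.0319) and PTPN2 (-0.52, limma adjusted p = 0.00285). MAPK3 of the cascade was then called higher (0.38, limma adjusted p = 0.033) and ERBIN of the PI3K list lower (-0.28, limma adjusted p = 0.0494). These genes are named after their values were seen. With all RNA libraries none of the 4 genes of the PI3K list passed, and their median was 0.00074.

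In DMSO, the footprint to RNA ratio of the 73 genes was tested against the median gene. In limma 9 were higher, 24 lower and 40 past neither side, around a median of -0.498 on the log2 scale. Over all genes 38.5% passed, 19.7% higher and 18.8% lower, with a median of -0.0814. Centring on the 75th percentile in place of the median changed the split over all genes from 1332 higher and 1277 lower to 989 higher and 1843 lower. By list, 4 of 11 feedback inhibitors and 4 of 7 shedding factors were lower, with 0 and 1 higher. Of 18 genes of the endocytosis list 4 were lower and 2 higher. Of 16 proteins of the RAS and ERK cascade 6 were lower and 2 higher, around a median of 0.191. The 16 ERK response genes had 4 lower and 4 higher, around a median of -0.0842. The 4 genes of the PI3K list had 2 lower (AKT1 and ERBIN) and 0 higher. NRG1 did not pass.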

How the data were processed

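RNA-seq and ribosome profiling were done on MDA-MB-231 cells, 3 libraries per assay and treatment. Per the labels' protocols, footprint lysates were treated with cycloheximide, cleared of nuclei and mitochondria before RNase I digestion, and rRNA was removed with probes and RNase H. The authors deposited FPKM values in a table for each library. The submitters' processing notes name fastp, Bowtie2, STAR and hg38; for versions, counter and annotation, the sources used here give nothing. The tables held 6785 entries, none below 1.002 FPKM; 8 repeats were removed, and 11 of the 6777 genes left have no symbol.

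FPKM was transformed as log2(FPKM + 1), which understates changes of low genes, and fitted with limma 3.58.1 (R 4.3.3; two-sided, moderated variances with a trend, Benjamini-Hochberg over all 6777 genes, calls at an adjusted p under 0.05). A filter of mean FPKM of at least 1 removed 0 genes. RNA and footprints were fitted apart, and translational efficiency as an interaction over 12 libraries. The fits were tested on simulated data. Footprint depth was inferred from the steps between FPKM values, and reads were taken as whole within 0.1 of a read, for AREG, HBEGF and DUSP5.

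The 7 genes and all gene lists were chosen with earlier results of these data known. A test of the DMSO footprint to RNA ratio of the 7 genes had been planned; since those libraries entered their choice, it is given as a description. Named were the 7 genes, all other ligands and feedback inhibitors listed, up to 3 called genes per direction of each other list, and 2 genes of most similar RNA profile per gene. Promoters are RefSeq's, build GRCh38.p14. Alternatives were another pseudocount, other filters, centring, no variance trend, a replicate block and each library left out.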

Additional observations from a re-analysis of the deposited data

How the results depend on the processing

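Over the alternatives run, the RNA differences of the 7 genes kept their sign, from -0.36 to -0.20 for EGFR, 0.14 to 0.27 for ERBB2, 0.76 to 0.83 for AREG, 0.35 to 0.45 for HBEGF, 1.10 to 1.17 for ERRFI1, 0.78 to 0.83 for ETV5 and 0.82 to 0.87 for DUSP5. In footprints ERBB2 ran from 2.60 to 3.63, ERRFI1 from 0.69 to 1.20 and DUSP5 from 0.62 to 1.25, AREG from 0.30 (without DMSO replicate 2) to 1.08 (without DMSO replicate 1) and HBEGF from 0.07 (without AZD0095 replicate 2) to 0.30, while EGFR (-0.12 to 0.29) and ETV5 (-0.28 to 0.09) changed sign. In translational efficiency ERBB2 ran from 2.40 to 3.42 and ETV5 from -1.08 to -0.72, while AREG (-0.49 to 0.29), ERRFI1 (-0.44 to 0.06) and DUSP5 (-0.23 to 0.41) changed sign. The DMSO ratio of AREG ran from -0.81 without footprint DMSO replicate 1 to -0.017 without footprint DMSO replicate 2. Counts of called genes moved more. RNA calls numbered 545 and ran from 100 to 1112 with 1 library left out, lowest without DMSO replicate 2 (100) and AZD0095 replicate 2 (116) and highest without AZD0095 replicate 1 (1112). With replicates 2 and 3 only, chosen after seeing the data, they numbered 1395 (656 higher, 739 lower), and DUSP10 reversed to 0.0204. Translational efficiency calls were 1 without a variance trend (PRR14, lower) and 0 to 4 with 1 library left out (MBTPS1, RPRD1A, SUMO2 and HDGFL2 without footprint DMSO replicate 1; ARMCX2, NFKBIZ and RPL13A without footprint DMSO replicate 2), none of them among the 7 genes and all named after their values were seen. Calls for the DMSO ratio, 2609, ran from 1404 to 3171 with 1 library left out. The cause of these moves was not tested. The labels tie same-numbered libraries by number alone, and whether they were paired is unknown. Deviations of same-numbered libraries correlated at 0.622, 0.0857 and 0.489 in RNA and at 0.00878, -0.0223 and 0.0913 in footprints. Between unlike numbers the RNA values ran from -0.57 (DMSO replicate 1 with AZD0095 replicate 3) to 0.303 (DMSO replicate 3 with AZD0095 replicate 2). DMSO replicate 2 correlated best with AZD0095 replicate 3 (0.234). With the replicate block, RNA calls numbered 1622 (856 higher, 766 lower), and DUSP7 (adjusted p = 0.0213) and PHLDA1 (adjusted p = 0.0137) passed in limma. Depth limits the footprint levels of AREG and DUSP5, with 14 and 15 reads in DMSO in all. It also limits that of ERBB2, at 0.543, 0.337 and 3.10 reads per kilobase in the DMSO libraries, each the lowest of the 7 genes.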
